A study of Rattus norvegicus with 6 samples.

Results

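The Hox genes of the 4 mammalian clusters (A, B, C and D) were examined in the colons of S.LEW congenic and S rats. All array probes whose transcript accession matched a rat gene named Hox, a cluster letter and a number were taken, which gave 22 probes for 20 genes out of 30367 probes, 18005 of them matched to 15168 named genes. The RefSeq gene table lists 39 Hox genes for the rat, and no probe was matched to the other 19. Cluster A had 5 genes with a probe, cluster B had 6, cluster C had 3 and cluster D had 6.

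Hox genes encode homeodomain transcription factors that give cells their position along the head-to-tail axis of the embryo. Within a cluster the genes are numbered by paralogue group. Low-numbered genes at the 3′ end are switched on early and far forward, and high-numbered genes at the 5′ end late and toward the tail, an order known as collinearity. The intestine keeps part of this order in the adult, in its muscle and connective tissue as well as its epithelium. The genes of paralogue group 13 mark the hindgut, and Hoxb13 is known as a gene of the distal colon and prostate.

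All 6 rats were males of the Dahl salt-sensitive (S) background, an inbred hypertensive strain. The S.LEW congenic strain, S.LEW(10)x12x2x3x5, carries a short Lewis segment of rat chromosome 10 on that background, and both strains are inbred, so each is a single genotype. Rats of both strains ate a low salt diet of 0.3% NaCl, received the colon carcinogen azoxymethane (AOM) as 2 injections (15 mg/kg) begun at 6 weeks of age, and were 30 weeks old at harvest. Rats without AOM were not analysed here, so each difference is one between AOM-treated colons. RNA of the colon of 3 congenic rats, named C1 to C3, and of 3 S rats, named S1 to S3, was read on 1 single-color Agilent array each, and the stretch of colon and the share of tumor in each sample are not stated in the sources used here.

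The median intensity of an array lay between 214 and 594, and 73.8% to 87.6% of its spots were well above background, with no spot saturated. The S arrays were less alike than the congenic arrays. Across the tested probes the correlation of S2 was 0.967 to 0.976 with C1, C2 and C3 but 0.900 with S1, and that of S1 with S3 was 0.980. Epithelial markers were high on every array, with a mean log2 signal of 13.02 to 14.25 over 9 genes, and so were smooth muscle markers, at 13.37 to 15.71 over 8. C1 and the 3 S rats lay on slide 1, C2 and C3 on slide 2.

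The promoters of 11 of the 20 genes were in the RefSeq promoter table (GRCr8). Printed here are the 250 bases before the annotated start of 4 of them, chosen after the values were seen because their genes stand for the patterns described below. Hoxa11 was lower on all S arrays, Hoxd9 was lowest on S2 and S3, and Hoxd12 and Hoxd13 were highest there. Each runs 5′ to 3′ along the gene's strand, with CpG dinucleotides in capitals.
Hoxa11 (chr4:82676802-82677051, minus strand): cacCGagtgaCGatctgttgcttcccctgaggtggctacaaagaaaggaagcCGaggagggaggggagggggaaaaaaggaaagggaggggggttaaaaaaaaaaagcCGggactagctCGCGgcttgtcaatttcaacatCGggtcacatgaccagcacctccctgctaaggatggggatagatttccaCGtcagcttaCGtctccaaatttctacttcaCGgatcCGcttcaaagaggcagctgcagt
Hoxd9 (chr3:80007756-80008005, plus strand): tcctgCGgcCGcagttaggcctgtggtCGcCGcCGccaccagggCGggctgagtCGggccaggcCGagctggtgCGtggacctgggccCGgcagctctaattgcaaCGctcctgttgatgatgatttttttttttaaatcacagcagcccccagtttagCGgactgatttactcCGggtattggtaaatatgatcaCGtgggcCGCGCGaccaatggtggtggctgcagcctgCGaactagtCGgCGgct
Hoxd12 (chr3:79984856-79985105, plus strand): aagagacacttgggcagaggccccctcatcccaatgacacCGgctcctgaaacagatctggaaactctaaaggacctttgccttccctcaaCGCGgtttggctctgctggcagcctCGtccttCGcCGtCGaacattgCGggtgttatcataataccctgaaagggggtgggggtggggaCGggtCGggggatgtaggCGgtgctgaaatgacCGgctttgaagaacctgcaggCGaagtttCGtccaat
Hoxd13 (chr3:79977827-79978076, plus strand): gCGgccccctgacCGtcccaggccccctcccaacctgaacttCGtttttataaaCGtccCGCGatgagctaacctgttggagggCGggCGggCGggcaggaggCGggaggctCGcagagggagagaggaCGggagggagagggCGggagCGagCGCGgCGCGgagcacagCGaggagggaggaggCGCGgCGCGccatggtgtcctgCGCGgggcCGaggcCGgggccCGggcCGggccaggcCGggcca

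The Hoxd13 window held 30 CpG and was 74.8% G or C. There were 20 CpG in the Hoxd9 window, 14 in that of Hoxd12 and 11 in that of Hoxa11. Over the 11 Hox windows the count ran from 3 (Hoxc4) to 30 with a median of 20, and 10 of the 11 lay above the median of 5 over the 33469 promoters of the table. Short motifs were looked for on both strands. The caudal-type motif TTTATG, of the Cdx proteins, was in the window of Hoxd4 (1 of 11 Hox windows, 11.4% of all promoters). The Meis motif TGACAG was in the window of Hoxa2 (1 of 11, against 15.8%). The retinoid receptor half-site AGGTCA was in those of Hoxc4, Hoxd4 and Hoxd10 (3 of 11, against 14.1%), and the TATA box TATAAA was in that of Hoxd13, in a single stretch that matches on both strands (1 of 11, against 12.9%). A match is a run of letters and not a measured binding site.

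Of the 39 Hox genes 16 could be tested. Of the 22 probes, 14 were well above background on all 6 arrays, and 17 probes for 16 genes met the criterion for testing, well above background on at least 3 arrays, which 81.3% of the probes of named genes met. Hoxc4, Hoxc12 and Hoxb13 were among those left untested. The Hoxc12 probe was well above background on S2 alone and the Hoxc4 probe on none. Their log2 signals spanned 2.31 to 3.48 for Hoxc4 and 2.40 to 4.52 for Hoxc12. These dim probes show no order between the strains that could be read. Hoxb13 is different and is described with its group below.

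**Figure D1:**
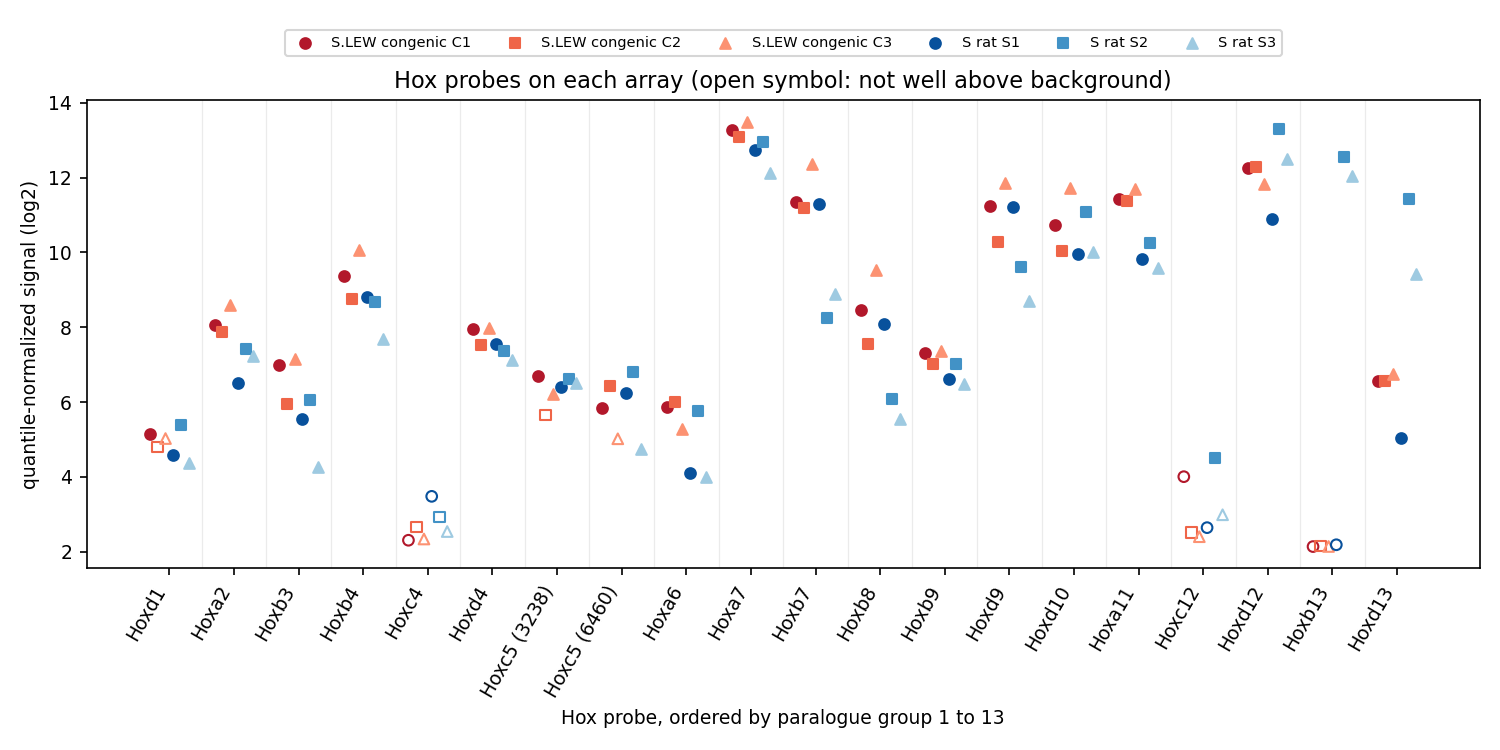
Quantile-normalized log2 signal (vertical axis) of 20 of the 22 Hox probes (horizontal axis, by paralogue group) on the 3 S.LEW congenic arrays (C1 to C3) and the 3 S arrays (S1 to S3), 1 symbol per array, open where the probe was not well above background. Levels of different probes are not comparable, but within a probe the widest spread is that of Hoxb13, at 2.14 to 2.19 on 4 arrays and above 12 on S2 and S3.

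Hox genes tended to be higher in the congenic strain, without any passing a test adjusted over the array. Of the 16 tested genes, 5 were called higher in the congenic strain (Hoxa2, Hoxb3, Hoxb7, Hoxb8 and Hoxa11) and 0 lower, where a call is an unadjusted limma p under 0.05 with a 2-fold change, the cut-offs of the study. Among all 12394 tested genes the same rule called 3.79% higher and 2.63% lower. At an adjusted p under 0.05 limma called 0 of the 16 and 0% of all genes, while 7 of the 16 lay under an unadjusted 0.05, against 14.5% of all genes. All congenic rats stood above all S rats at 4 of the 16 genes (Hoxa2, Hoxa7, Hoxb9 and Hoxa11) against 14.2% of genes, and below at 0 against 4.97%. The log2 fold change, congenic minus S, was above 0 for 13 of the 16, or 81.25%, against 53% of all genes, and its median was 0.84 against 0.03. At 3 rats against 3, the smallest p of an exact permutation test is 0.1. The methods' t-test, run on the same values, called Hoxa2 and Hoxa11 higher (2 of 16, against 2.6% of all genes).

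**Figure D2:**
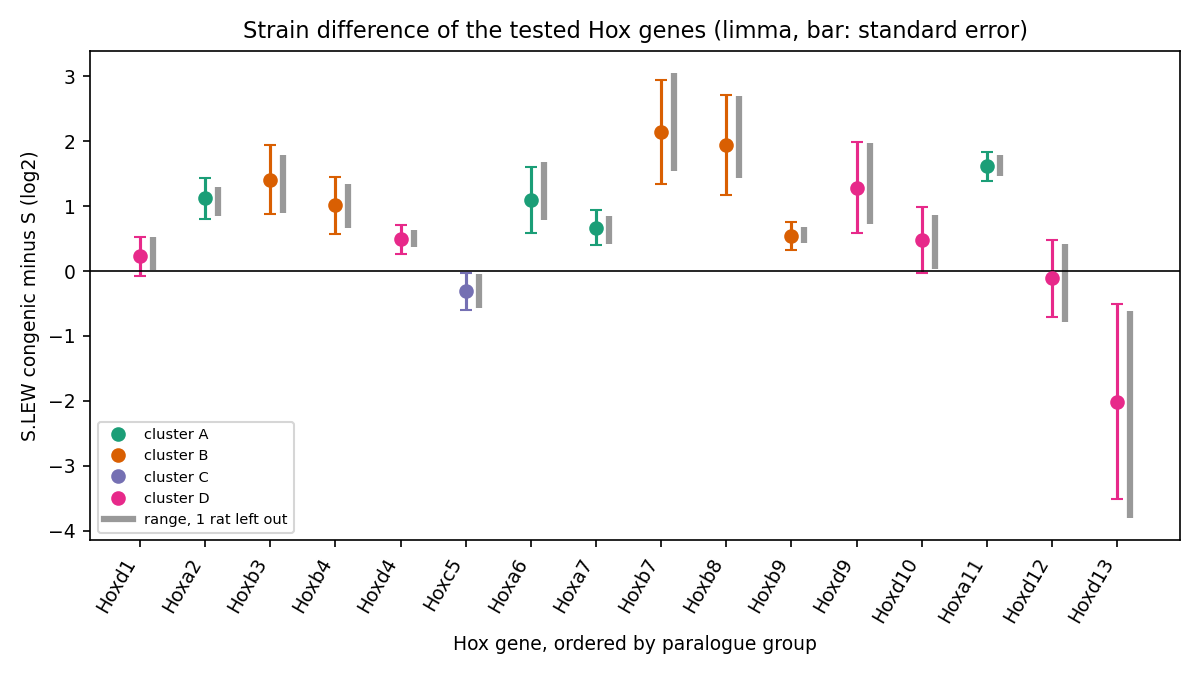
Log2 fold change of the 16 tested Hox genes, S.LEW congenic minus S (vertical axis), in order of paralogue group (horizontal axis), as points colored by cluster with the limma standard error, 3 rats per strain. Thick grey lines give the range when each rat in turn was left out, which is narrow for Hoxa11 (1.46 to 1.79) and wide for Hoxd13 (-3.81 to -0.61).

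Among the anterior genes, paralogue groups 1 to 3, the 3 tested genes had a median log2 fold change of 1.12. Hoxa2, known for patterning of the hindbrain and second pharyngeal arch, had a log2 signal of 8.05, 7.88 and 8.60 in C1, C2 and C3 and of 6.52, 7.41 and 7.24 in S1, S2 and S3. The strains did not overlap and S1 was the lowest. The mean of the congenic rats was 8.18 ± 0.38 (SD, n = 3) and that of the S rats 7.06 ± 0.47 (SD, n = 3), a log2 fold change of 1.12 (standard error 0.32, limma adjusted p = 0.295). It passed under the 2-fold cut-off without S1 (0.85) and without C3 (0.91). Hoxb3, a gene of the hindbrain and neck in the embryo, read 7.0, 5.95 and 7.14 in the congenic rats and 5.56, 6.04 and 4.27 in the S rats. C2 lay below S2, so the strains overlapped, and S3 was far below the rest. Its log2 fold change was 1.41 (standard error 0.54, limma adjusted p = 0.366). The call was lost without C1, C3, S1 or S3, the log2 fold change without S3 being 0.90. Hoxd1, at 4.36 to 5.38 over the 6 arrays, was well above background on 1 congenic array and all 3 S arrays, and its log2 fold change was 0.22 (standard error 0.30).

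In the central groups, 4 to 8, the median over 7 tested genes was 1.01. Of these, 2 were called higher and 0 lower, against 3.79% and 2.63% of all genes. The largest log2 fold changes were those of a pair of neighbors in cluster B. Hoxb7, a trunk gene of the embryo, had a log2 signal of 11.33, 11.18 and 12.36 in the congenic rats, 11.29 in S1, 8.26 in S2 and 8.89 in S3. S1 lay between congenic rats, and S2 and S3 lay well under all other arrays. Its log2 fold change was 2.15 (standard error 0.80, limma adjusted p = 0.360). It was 3.05 without S1 and 1.54 without S2, and the call was lost without C1, C3, S2 or S3. Hoxb8, known from the nervous system and the myeloid lineage, read 8.47, 7.54 and 9.52 in the congenic rats, 8.09 in S1, 6.08 in S2 and 5.54 in S3. The arrangement was that of Hoxb7, with S1 among the congenic rats and S2 and S3 under them. Hoxb8 had a log2 difference of 1.94 (standard error 0.78, limma adjusted p = 0.380), 2.70 without S1, and the call was lost without C1, C3, S2 or S3.

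The other central genes were not called. Hoxa7, another trunk gene, read 13.26, 13.07 and 13.49 against 12.74, 12.96 and 12.11, without overlap and with S3 lowest. Its log2 fold change of 0.67 (standard error 0.27, limma adjusted p = 0.382) did not reach 2-fold. Hoxb4, known for the expansion of blood stem cells, read 9.36, 8.76 and 10.08 against 8.81, 8.67 and 7.68, where S1 lay above C2. The log2 fold change of Hoxb4 was 1.01 (standard error 0.44, limma adjusted p = 0.391), and it was called higher without C2 (1.33) or S1 (1.22). Hoxa6 read 5.88, 6.01 and 5.28 in the congenic rats and 4.10, 5.77 and 4.0 in the S rats. S2 was as high as the congenic rats and S1 and S3 were lower, giving 1.1 (standard error 0.51, limma adjusted p = 0.404) and, without S2, a call at 1.67 in a fit that called 11.3% of all genes higher. For Hoxd4 the values were 7.97, 7.52 and 7.98 against 7.54, 7.35 and 7.11, with S1 level with C2 and a log2 fold change of 0.49 (standard error 0.22, limma adjusted p = 0.399). Hoxc5, the tested gene of cluster C, read 6.70, 5.66 and 6.22 against 6.39, 6.63 and 6.50, with both strains in 1 range and C2 not well above background. Its log2 fold change was -0.31 (standard error 0.29, limma adjusted p = 0.605), and that of its second probe -0.16.

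The 6 tested posterior genes, groups 9 to 13, had a median log2 fold change of 0.51. Of these, 1 was called higher and 0 lower, against 3.79% and 2.63% of all genes. Without the detection filter, which left out Hoxc12 and Hoxb13, the median was 0.18 over 8 posterior genes. In a division chosen after the values were seen, the 4 tested genes of groups 9 to 11 lay above 0, with a median of 0.91. Hoxd12 and Hoxd13 had -0.11 and -2.01. Hoxa11, which patterns the limb and the uterus, showed the smallest p of any Hox gene. It read 11.44, 11.38 and 11.69 in C1, C2 and C3 and 9.83, 10.25 and 9.60 in S1, S2 and S3. The strains were far apart relative to the spread within either. The congenic mean was 11.50 ± 0.17 (SD, n = 3) and the S mean 9.89 ± 0.33 (SD, n = 3), a log2 fold change of 1.61, or 3.06-fold (standard error 0.23, limma adjusted p = 0.193). Hoxa11 was called higher under every setting tried, with a log2 fold change of 1.46 to 1.79 with each rat left out and of 1.55 with the slide as a block. The adjusted p was under 0.05 in the fit without S2 alone (0.0056), in which 25.8% of all genes passed. Hoxb9, a gene of the thoracic region, read 7.32, 7.02 and 7.36 against 6.61, 7.01 and 6.49, and C2 and S2 were almost level. Its log2 fold change was 0.53 (standard error 0.22, limma adjusted p = 0.380).

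Hoxd9 and Hoxd10 fell outside the rule for genes given by array and were chosen after their values were seen, since they sit between the anterior and the 5′ end of cluster D. Hoxd9 read 11.25, 10.27 and 11.86 in the congenic rats, 11.20 in S1, 9.61 in S2 and 8.71 in S3. As with Hoxb7 and Hoxb8, S1 lay among the congenic rats with S2 and S3 under them. The log2 fold change of Hoxd9 was 1.29 (standard error 0.70, limma adjusted p = 0.448), and 1.97 with a call without S1 (2.8% of all genes called higher). Hoxd10 read 10.73, 10.04 and 11.71 against 9.96, 11.09 and 10.01, with no order between the strains, at a log2 difference of 0.48 (standard error 0.51).

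At the 5′ end the S rats differed from each other far more than the strains did. Hoxd13, a gene of the digits and the hindgut, had a log2 signal of 6.55, 6.55 and 6.76 in the congenic rats, 5.04 in S1, 11.43 in S2 and 9.42 in S3. The congenic rats were nearly level, S1 was under them and S2 and S3 were far above. The log2 fold change was -2.01 with a standard error of 1.5 (limma adjusted p = 0.539). Without S1 it was -3.81 and called lower (limma adjusted p = 0.146, with 1.47% of all genes called lower), and without S2 it was -0.61. Hoxd12, its neighbor, read 12.26, 12.27 and 11.83 in the congenic rats, 10.90 in S1, 13.30 in S2 and 12.51 in S3. S1 was again the lowest and S2 and S3 the highest, in a narrower range of 2.40, with a log2 fold change of -0.11 (standard error 0.59, limma adjusted p = 0.933) that turned to 0.42 without S2 and to 0.022 with the slide as a block.

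Hoxb13 was chosen after its values were seen, since the criterion for testing left it out. It had a log2 signal of 2.14, 2.16 and 2.14 in C1, C2 and C3 and of 2.19 in S1, and of 12.54 in S2 and 12.04 in S3. The probe was thus not well above background on 4 arrays, S1 among them, and bright on the other two. Before normalization the log2 intensities were 2.24, 2.52, 2.43 and 2.29 on those 4 arrays, 12.04 on S2 and 12.55 on S3, so the gap was present in the scanner values. Against the dimmest signal that counts as well above background on each congenic array, the S mean of Hoxb13 was higher by 15.0-fold. That mean takes S1 at its own dim signal, so the value is not a strict bound, and it rests on S2 and S3. The value was 154-fold without S1, 4.28-fold without S2 and 5.08-fold without S3. In a fit of all probes without the filter its limma adjusted p was 0.376, it was not called, and 2.08% of all genes were called lower.

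**Figure D3:**
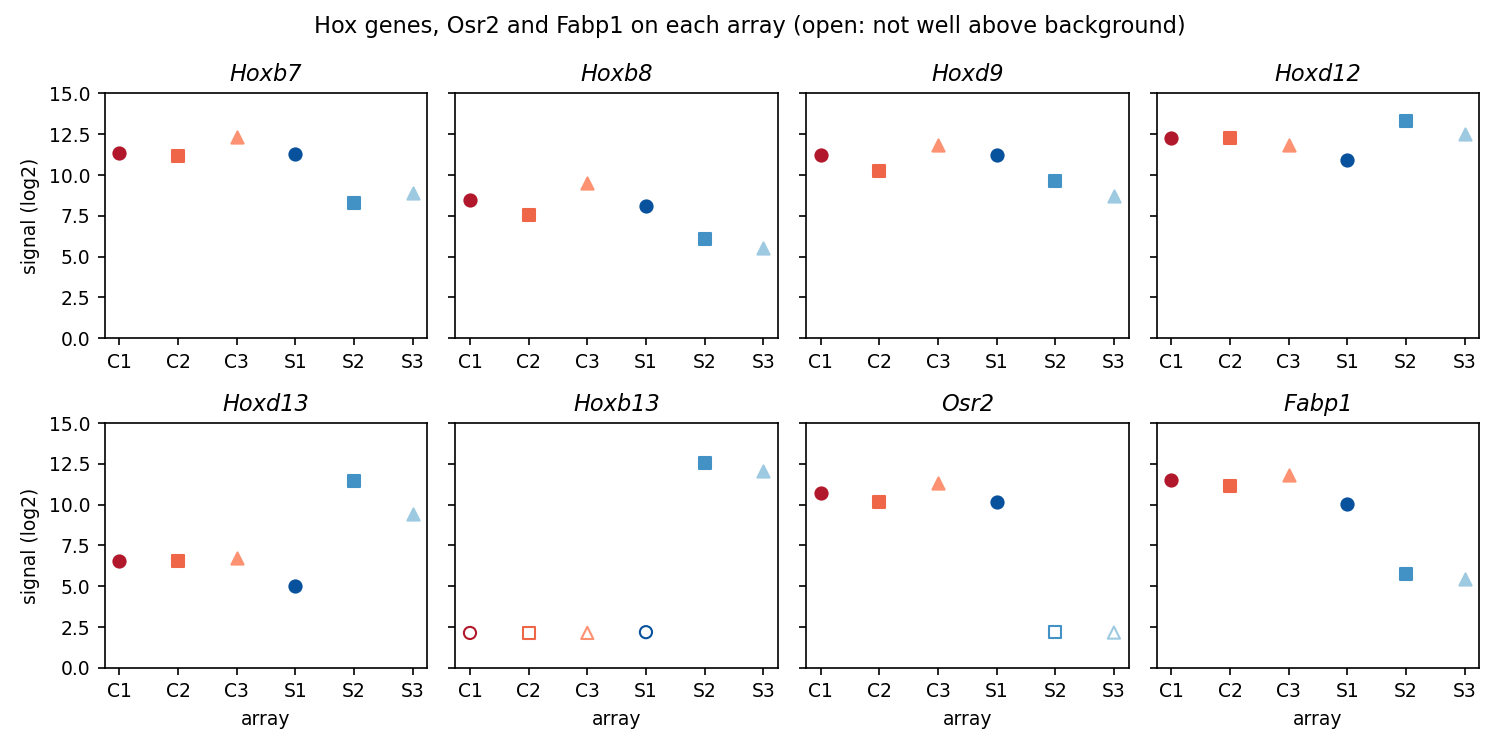
Log2 signal (vertical axes) of Hoxb7, Hoxb8, Hoxd9, Hoxd12, Hoxd13, Hoxb13, Osr2 and Fabp1 on each of the 6 arrays (horizontal axes; C, S.LEW congenic; S, S), open where not well above background; the genes were chosen after their values were seen. On S2 and S3 the first 3 genes and the last 2 are lower than on the other 4 arrays, and Hoxd12, Hoxd13 and Hoxb13 are higher.

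Read by array, the difference of a gene from its own mean over 6 arrays had a median over the 16 tested genes of 0.41 in C1, -0.02 in C2, 0.77 in C3, -0.33 in S1, 0.03 in S2 and -0.70 in S3. C3 was the highest array for 11 of the 16 and S3 the lowest for 10. In the central genes the medians of S1, S2 and S3 were -0.04, -0.22 and -1.17, and the congenic rats had 0.00 to 0.55. For groups 12 and 13 it was -0.50, -0.49 and -0.61 in the congenic rats, -1.93 in S1, 2.46 in S2 and 1.06 in S3. S1 and S2 thus differed more from each other at the 5′ end than either did from the congenic rats.

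**Figure D4:**
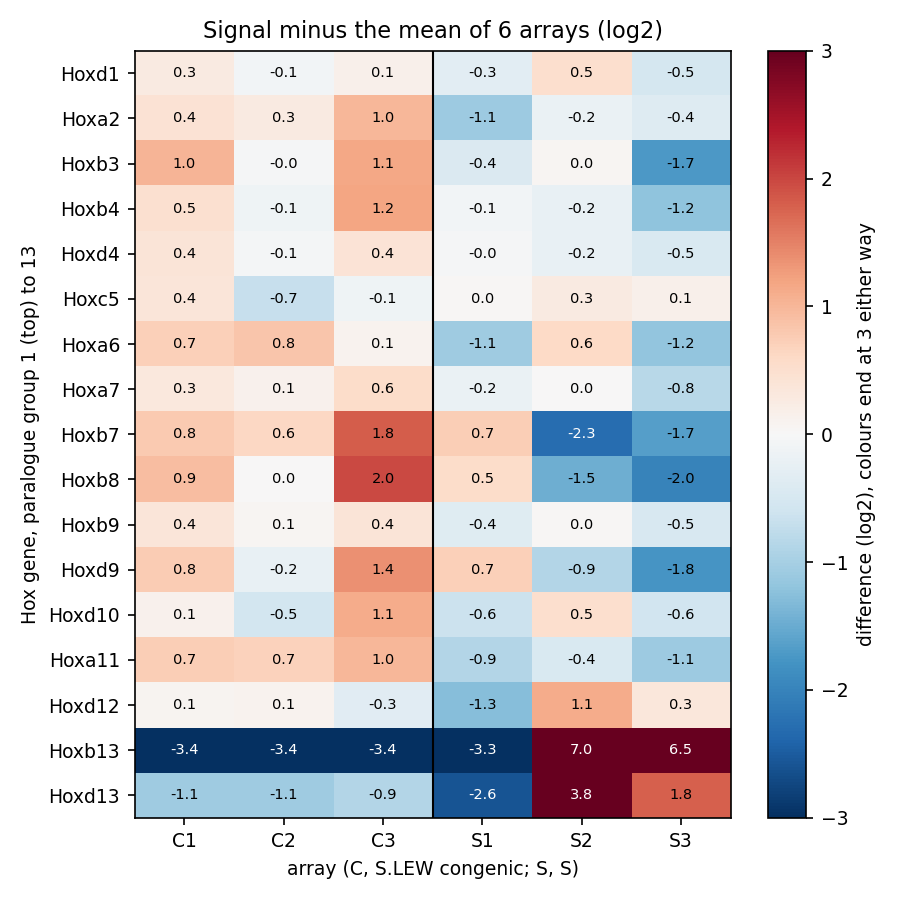
Log2 signal of each of the 16 tested Hox genes and of Hoxb13, not tested, minus its mean over 6 arrays, as colors that end at 3 either way, with the arrays across (C, S.LEW congenic; S, S) and the genes down in order of paralogue group. C3 is above the mean for most genes and S3 below it, while at the bottom Hoxd12, Hoxb13 and Hoxd13 are above their mean on S2 and S3 (1.79 to 3.80 for Hoxd13) and under it on S1.

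Lists of tissue markers also differed between the arrays, and the part of tissue composition in the Hox differences was not tested. In colon RNA, fewer cells of a type cannot be told apart from less RNA per cell. Beside the counts below, 3.79% of all genes were called higher and 2.63% lower. The mean log2 signal of 5 tested lymphoid genes was 12.55 in S1 and 12.32 in S3, while S2 had 6.85 and the congenic rats 6.73 to 7.13. Of these genes 3 were called lower in the congenic strain, Cd3d and Lck among them, and Cd3e, Cd79b and Ccr7 were well above background on S1 and S3 only. The smooth muscle mean was 13.37 in S1 and 14.36 in S3 against 15.38 to 15.71 on the other 4 arrays, with 1 of 8 genes called higher (Smtn). The enteric neuron and glia mean was 8.15 and 8.52 in S1 and S3 against 8.94 to 9.98, with 0 of 8 called. Skeletal muscle genes averaged 8.37, 9.71 and 9.30 in S1, S2 and S3 and 7.48 to 7.97 in C1 to C3, and Tnnt3 was called lower in the congenic strain. Mybpc1 and Myh1 of that list passed the background criterion in every S rat but in no congenic rat, which bounds them as lower in the congenic strain by at least 7.29-fold and 2.13-fold. Epithelial markers averaged 13.70 to 14.25 in the congenic rats and 13.02 to 13.41 in the S rats, with 1 of 9 called higher (Vil1). All congenic rats stood above all S rats at 6 of these 9 genes, against 14.2% of all genes, and below at 0, against 4.97%. Fibroblast means (9.99 to 11.11) and endothelial means (8.38 to 8.90) overlapped between the strains, as did those of squamous epithelium (6.45 to 7.62), with 0 genes called in each of these lists. The fat list averaged 7.0 to 7.60 in the congenic rats and 6.14 to 6.44 in the S rats, with 1 of 4 called higher. The median log2 fold change was 0.95 over the smooth muscle list, 0.86 over fat, 0.81 over epithelium and 0.71 over enteric neurons and glia, a range that holds the Hox median of 0.84. It was 0.20 for fibroblasts, 0.17 for squamous epithelium, -0.24 for endothelium, -1.08 for skeletal muscle and -3.43 for the lymphoid list.

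Genes that mark position along the gut were set beside the Hox genes. Of 9 tested genes known to be higher in proximal colon or ileum, 4 had a log2 fold change above 0. Of the 9, 3 were called higher in the congenic strain and 0 were called lower, against 3.79% and 2.63% of all genes. Osr2, a zinc finger transcription factor, had a log2 signal of 10.74, 10.14 and 11.33 in the congenic rats and 10.15 in S1, and of 2.18 and 2.16 in S2 and S3, where it was not well above background. Its arrays divided as those of Hoxb13 did, the other way up. Since S1 was the only S rat in which it could be measured, its fitted log2 difference of 5.91 (standard error 2.13, limma adjusted p = 0.353) is no exact size, and of the fits with 1 rat left out the call was kept without S1 alone, where it was higher in the congenic rats by at least 125-fold. Fabp1, the liver-type fatty acid binding protein of absorptive cells, read 11.51, 11.13 and 11.80 against 10.03, 5.76 and 5.43. S1 was the nearest to the congenic rats, and the log2 fold change was 4.41 (standard error 1.19, limma adjusted p = 0.284), or 5.89 without S1, 3.75 without S2 and 3.59 without S3. Fabp2, the intestinal fatty acid binding protein, read 10.99, 10.51 and 10.14 against 9.89, 8.49 and 8.21, and its log2 fold change was 1.69 (standard error 0.48, limma adjusted p = 0.301). The median of this list was nonetheless -0.03. Fabp6, the ileal bile acid binding protein, read 6.77, 7.79 and 7.19 against 9.91, 6.95 and 11.32 and was not called, and Slc10a2, the ileal bile acid transporter, was well above background on none of the arrays.

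Of 5 tested genes known to be higher in the distal colon, 0 were called higher and 0 lower, against 3.79% and 2.63% of all genes. Their median was 0.00. Scnn1b, a subunit of the epithelial sodium channel, and Pyy, a hormone of enteroendocrine cells, had log2 fold changes of -0.50 and 0.37. The Scnn1b probe was well above background on 1 congenic array and all 3 S arrays.

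Among 21 tested transcription factors that differ along the gut, 2 were called higher (Osr2 and Sox2) and 0 lower, with a median of 0.52. Over all genes 3.79% were called higher and 2.63% lower. Sox2, a factor of the foregut and of enteric glia, read 6.10, 6.22 and 7.02 against 4.22, 5.97 and 4.66, a log2 fold change of 1.5 (standard error 0.50, limma adjusted p = 0.338). S2 lay close to the congenic rats, and the call was lost without C3, S1 or S3. Cdx2, the caudal homeobox factor that specifies the intestine and acts on Hox genes in the embryo, read 14.10, 14.00 and 14.34 against 13.52, 13.73 and 12.90. The strains did not overlap, but the log2 fold change was 0.76 (standard error 0.26, limma adjusted p = 0.345), under 2-fold. Tbx3 had a log2 fold change of 0.93, with a standard error of 0.67. Pdx1, Barx1 and Tlx1, factors of duodenum, stomach and spleen, were not well above background on any array.

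The lists of genes that act with or upon the Hox genes had smaller medians than the Hox genes, with changes in both directions. Over all genes 3.79% were called higher and 2.63% lower. Of the cofactors, the Pbx, Meis and related homeodomain proteins that bind DNA with Hox proteins, 10 were tested and 0 were called. Their median was 0.01, with 5 of the 10 above 0. Meis1 had the largest log2 fold change, 0.76 (standard error 0.52), followed by Pbx3 at 0.67 (standard error 0.39) and Meis3 at 0.65 (standard error 0.24). Of 26 tested Trithorax and Polycomb genes, which keep Hox genes on or off, 6 had a log2 fold change above 0, with a median of -0.19. Among them 0 were called higher and 1 lower. That gene was Phf19, a Polycomb accessory protein, at 8.24, 8.60 and 8.15 against 10.87, 8.58 and 10.23. S2 was level with the congenic rats, as was also the case for the lymphoid genes, and the log2 fold change was -1.56 (standard error 0.57, limma adjusted p = 0.356). The call was kept without S2 (-2.22) and lost with any other rat left out. Ezh2, the catalytic subunit of Polycomb repressive complex 2, and Phf1, a further accessory protein, both had a log2 fold change of -0.85 (standard errors 0.50 and 0.41) and were not called.

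**Figure D5:**
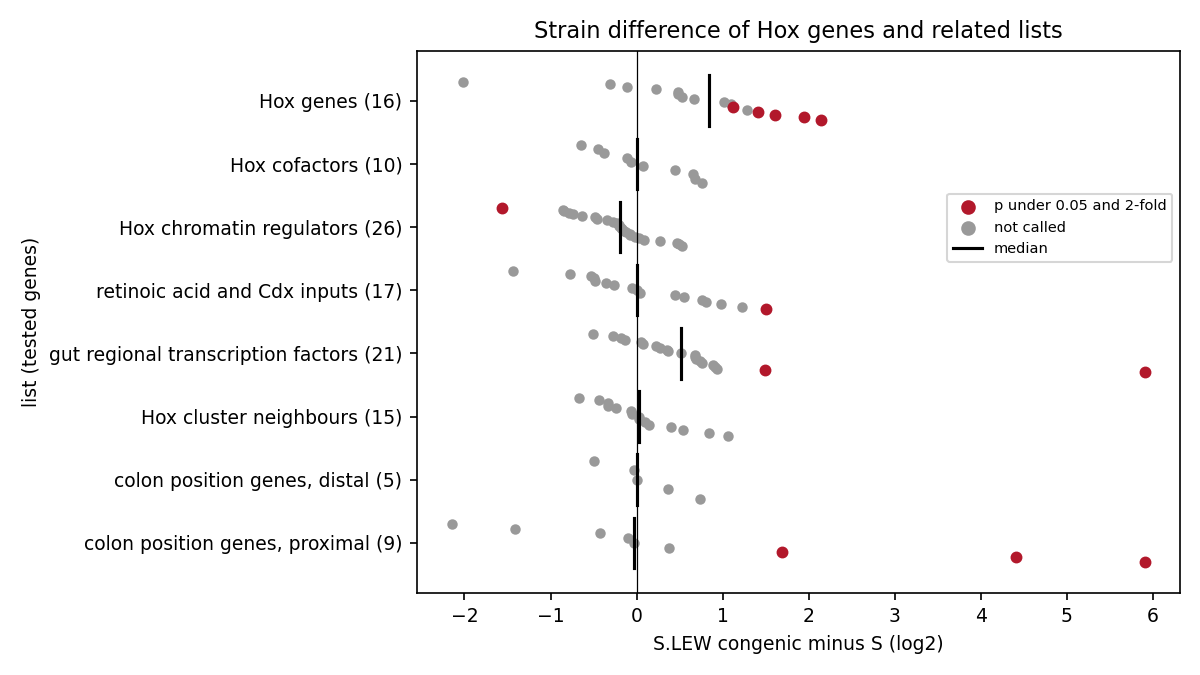
Log2 fold change, S.LEW congenic minus S (horizontal axis), of every tested gene of the Hox set and of 7 related lists (vertical axis, with the number tested), 1 point per gene, in red where called at a limma p under 0.05 with a 2-fold change, and a bar at the median. The medians are 0.84 for the Hox genes, 0.52 for the gut regional transcription factors and -0.19 to 0.03 for the other 6 lists; the tissue marker lists are not plotted, and that of smooth muscle had a higher median, 0.95.

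Retinoic acid, made from vitamin A, and the Cdx factors switch on Hox genes in the embryo. Of 17 tested genes of these inputs 1 was called higher and 0 lower, against 3.79% and 2.63% of all genes. Their median was 0.01. Aldh1a1, an enzyme that makes retinoic acid, read 12.09, 12.05 and 12.86 against 10.70, 11.70 and 10.11. The strains did not overlap and the log2 fold change was 1.5 (standard error 0.45, limma adjusted p = 0.317), between 1.14 and 1.93 with 1 rat left out. With the slide as a block it was 1.26, and of the called genes of these related lists (Osr2, Fabp1, Fabp2, Sox2, Aldh1a1 and Phf19) Fabp2 alone kept its call, there and on slide 1 only. Crabp1, which binds retinoic acid, had a value of 1.23 (standard error 0.55). Of 15 tested genes that flank the clusters 0 were called, and their median was 0.03. Evx1, the homeobox gene beside the 5′ end of cluster A, read 10.17, 9.01 and 9.65 against 7.42, 9.72 and 8.49 (a log2 difference of 1.07 with a standard error of 0.61). Evx2, beside the 5′ end of cluster D, had -0.67 (standard error 0.45). It was well above background on 1 congenic array and all 3 S arrays. Atp5mc1, a subunit of ATP synthase whose gene lies beside cluster B, had 0.84 (standard error 0.20). At Evx1 the S rats stood in the order of Hoxd13 and Hoxb13, with S1 lowest and S2 highest, in a narrower range. Unlike those genes, Evx1 in S2 lay within the congenic range and in S3 below it. Evx2 read 5.51, 5.73 and 5.31 in S1, S2 and S3, without that order.

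Within the Hox genes, values were also read by cluster. All 4 tested genes of cluster A and all 5 of cluster B had a log2 fold change above 0, with medians of 1.11 and 1.41. Of these, 2 in cluster A and 3 in cluster B were called higher and 0 lower. Hoxb13, also of cluster B, was left untested and had -6.78 in the fit without the filter. Cluster D had a median of 0.35 over 6 genes and 0 called. Over all genes 3.79% were called higher and 2.63% lower. The tested genes of groups 12 and 13, Hoxd12 and Hoxd13, both lie in cluster D, so cluster and position cannot be told apart. With the slide as a block, or within slide 1 where C1 is the only congenic rat, Hoxa11 alone stayed called, and the log2 fold changes of Hoxa2, Hoxb3, Hoxb7 and Hoxb8 were 0.99, 1.71, 1.85 and 1.90. No S rat lay on slide 2 beside C2 and C3, so within a slide the congenic strain is represented by C1.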

How the data were processed

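Colon RNA of 3 S.LEW congenic and 3 S rats was measured on Agilent single-color arrays, designed on the rn4 genome. The authors scanned the arrays and, per the labels, used Agilent Feature Extraction 11.0.1.1, and the deposited scanner files give a background-corrected intensity per spot, not normalized between arrays. The authors' deposited log2 table holds 23997 quantile-normalized probes.

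Control spots and spots flagged as outliers (274 to 419 per array) were left out, spots of a probe were averaged as log2 intensity, and the 6 arrays were quantile-normalized. On every array these values correlated with the deposited log2 values at 0.999908 or more, and the latter were an alternative. The 23968 probes that were well above background on 3 or more arrays were tested for strain alone with lmFit and eBayes of limma 3.58.1 (R 4.3.3), and p-values were adjusted by Benjamini-Hochberg over these probes. A gene is given by its probe of highest mean signal. Where no array of a strain was well above background, a bound is given instead. The bound sets the brighter strain's mean against a floor, which on each array of the other strain is the lowest signal well above background, or the probe itself if that was higher. Exact permutation tests were two-sided. The number of arrays limits the precision. Each array is 1 rat, so the replicates are animals. The script was tested on simulated data. Figures were drawn with matplotlib 3.10.9.

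Genes were named by accession from RefSeq (GRCr8), which also gave the promoter windows; no array coordinates were used. Members and lists were chosen with earlier results of these data known. Given by array were called members, the 10 with the smallest p, those of groups 12 and 13, the brightest of each cluster, and, in the related lists, called genes and up to 3 with the largest change, some by their fold change alone, and some genes are not reported here. Alternatives were 75th percentile scaling, the deposited values, normexp (offset 50) on the median signal (added after seeing the data), detection required on all 6 arrays or on none, the methods' t-test, flagged spots kept, the slide or the replicate number as a block, slide 1 only, and each rat left out.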

Additional observations from a re-analysis of the deposited data

How the results depend on the processing

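The count of 5 Hox genes called higher was 3 with normexp background correction on the median signal, 2 with the methods' t-test, and 1 with the slide as a block or on slide 1 only. It ranged from 1 to 6 with 1 rat left out, the count called lower from 0 to 1 and the count at an adjusted p under 0.05 from 0 to 4. The lowest count, 1, was without C3, it was 2 without C1 or S3, and the 4 at an adjusted p (Hoxa2, Hoxa6, Hoxb9 and Hoxa11) came without S2, where 25.8% of all genes passed. Of the related lists 5 genes were called higher and 1 lower, out of 100 tested, against 3.79% and 2.63% of all genes. The count called higher was 3 with the t-test and 1 with the slide as a block or slide 1 only (3 to 15 with 1 rat left out). The count called lower was 2 with normexp, with the filter on all 6 arrays and with the replicate block, and 0 with the t-test, the slide block or slide 1 only (0 to 10 with 1 rat left out). The highest of both, 15 and 10 of 100 genes, came without S2, where 11.3% of all genes were called higher and 8.26% lower. The anterior median was 0.66 with normexp and 0.67 without a filter, and the posterior median was 0.18 without a filter. With 1 rat left out the medians ranged from 0.85 to 1.30 (anterior), 0.66 to 1.16 (central) and 0.25 to 0.77 (posterior). Hoxc5 changed sign, to 0.20, with the slide as a block and on slide 1 only. Hoxd12, at -0.11, did so at 0.022 under both, at 0.0295 without C3, 0.42 without S2 and 0.0214 without S3, and was -0.78 without S1. The causes were not tested. Over all alternatives, counts and medians stayed near their value 110 times and moved 26 times. Single Hox genes kept direction and call 165 times, lost the call 30 times, gained it 5 times and changed sign 7 times. That tally leaves out Hoxd1, Hoxd9 and Hoxd10, which fell outside the rule for genes given by array. The paper states that an S rat and a congenic rat shared each cage, but not whether like replicate numbers mark cage-mates. The deviations of like-numbered rats from their strain means correlated at -0.02, -0.13 and -0.06 over 23968 probes, which cannot settle that. With the replicate block 5 Hox genes were called higher, 4 of them those called without it, Hoxa6 taking the place of Hoxb3. The planned normexp correction on the mean signal was not run, and the median signal took its place. Signal over background left Hoxc4, Hoxc12 and Hoxb13, among others, untested.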
